A study of Mus musculus with 54 samples.

Results

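The cytosolic ribosome is built from ribosomal RNA and a set of ribosomal proteins, with Rpl genes encoding the large (60S) subunit and Rps genes the small (40S) subunit. Their mRNAs are among the most abundant in growing cells and carry a pyrimidine tract at the 5′ end through which mTOR signalling and LARP1 control their translation, so mRNA level and protein output can part. In muscle, myogenic progenitors make ribosomes at a high rate while they proliferate and remodel this supply as they leave the cell cycle and fuse. Genes were taken as members when their mouse symbol was Rpl or Rps followed by a number, with an optional letter or l, or was Rplp0, Rplp1, Rplp2 or Rpsa, and kinases and pseudogenes were left out. In total, 82 protein-coding genes met this rule in RefSeq, 81 of them were listed in at least 1 of the 27 deposited tables, and 78 reached a level of 10 normalized counts in some table. These 78 genes, 47 of the large and 31 of the small subunit, are described here out of 19653 genes listed. Rpl10l was not listed, no gene named Rps4l met the rule, and Rpl3l, Rpl32l and Rpl39l stayed under the level of 10.

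The samples were mouse H2K myogenic progenitors, a conditionally immortal line kept in γ-interferon while it proliferates, sequenced as polyA RNA at day 0, day 1 and day 2 of differentiation (0, 24 and 48 h). Wildtype progenitors and emerin-null progenitors (EMD-/y, which lack the X-linked inner nuclear membrane protein emerin) were compared with 4 lines made from the EMD-/y cells by lentivirus: +EMD, which received wildtype emerin, and S54F, Del9599 and Q133H, which received emerin mutants that cause Emery-Dreifuss muscular dystrophy. The transduced lines were kept in puromycin, which the wildtype and EMD-/y cells were not, and were plated at a higher density. The puromycin dose was not the same in all of these lines, and no line with an empty vector is among the groups. Transduction, selection and plating therefore cannot be told apart from the emerin form when these lines are set beside wildtype or EMD-/y. Each of the 18 groups had 3 labelled replicates, 54 samples in all. The protocol gives 3 technical replicates per biological replicate without saying which labelled samples share a culture.

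Each table gave a pooled level for 2 groups and no value per sample, so no difference below has an SD, an n or a p-value, and a value is called higher or lower as a description of these pooled levels. The only measure of precision was how a group's level varied among the 2 to 7 tables that held it. For the 78 genes this spread had a median of 0.0014 on the log2 scale, and Rps13, at 0.23, was the only gene past 0.1. It covers the authors' normalization and not differences between cultures. Levels are given in CPM, the normalized counts of a gene per 1000000 of its column's sum, as the mean over the tables that hold the group. Changes are log2 ratios of normalized counts with 1 added to each, taken within a table, and a gene is counted as higher or lower past 0.3.

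The targeted gene was checked first. Emd stood between 986.7 and 1962 normalized counts in wildtype and, in the tables that pair a line with wildtype, between 0.68 and 3.52 in the other lines, +EMD included. In the tables that pair 2 days of such a line it stood lower, between 0.14 and 0.85, so a level near 0 differed with the partner group and is no plain mean of counts. By Western blot, the paper found emerin protein near the wildtype level in +EMD, S54F and Del9599. It found more in Q133H and none in EMD-/y. The Emd level given here thus does not stand for the emerin protein of the transduced lines. All 11 myogenic markers chosen for this check were listed in every group, and all exceeded 1 CPM except Pax7, the marker of satellite cells, in Q133H, where it was at 0.18, 0.33 and 0.46 CPM on days 0, 1 and 2. Their summed level went from 3911 CPM in wildtype day 0 to 36149 at day 2, against 3293 and 8193 in Q133H. Of 12 markers of fibroblast, endothelial, blood and glial cells, 11 were listed and 1 to 4 exceeded 1 CPM in a group, with sums between 19.3 and 265.9 CPM.

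The start regions of 6 members that the results turn on are shown here, from 40 bases before to 20 bases from the annotated start, 5′ to 3′ on the coding strand, from RefSeq on GRCm38.p6. They are Rpl26 and Rps18, which were low in wildtype, Rps13 and Rpl39, which were high in opposite sets of groups, and the paralogs Rps27 and Rps27l. A further RefSeq start of Rps27l, whose stretch at chr9:66946373-66946432 holds 0 ETS cores and 0 such runs, is not printed. Capitals mark CCGGAAG or its reverse complement, the core bound by GABP and other ETS factors, and unbroken runs of at least 8 C or T.
Rpl26 (chr11:68901526-68901585, + strand): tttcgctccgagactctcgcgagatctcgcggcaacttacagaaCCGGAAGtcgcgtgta
Rps18 (chr17:33955646-33955705, - strand): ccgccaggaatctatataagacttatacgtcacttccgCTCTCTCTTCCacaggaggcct
Rps13 (chr7:116334171-116334230, - strand): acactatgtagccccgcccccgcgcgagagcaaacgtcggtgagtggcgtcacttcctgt
Rpl39 (chrX:37085203-37085262, - strand): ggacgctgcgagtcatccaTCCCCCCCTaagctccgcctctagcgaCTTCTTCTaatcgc
Rps27 (chr3:90213629-90213688, - strand): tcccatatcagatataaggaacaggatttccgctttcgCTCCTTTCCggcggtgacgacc
Rps27l (chr9:66946046-66946105, + strand): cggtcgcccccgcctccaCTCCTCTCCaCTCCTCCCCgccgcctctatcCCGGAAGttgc

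The run in Rps18 and that in Rps27 lie across the annotated start, the place where the 5′ pyrimidine tract begins, while no run was found in the stretch of Rpl26 or Rps13. RefSeq promoters were given for 62 of the 82 genes. A run of at least 8 C or T within 20 bases of the start was present in 30 of these 62 (48.4%), beside 18.4% of all 27025 genes with a promoter and 19.3% of genes listed at a level of 10 or more. The ETS core, searched on both strands of the 300-base promoter, was present in 25 of the 62 (40.3%), beside 9.93% of all and 18.9% of listed genes. The TATA box TATAAA was present in 7 members (11.3%, beside 15.7% of all and 9.22% of listed genes) and the CCAAT box in 20 (32.3%, beside 41.1% and 43.2%). The GC box GGGCGG was present in 37 (59.7%, beside 38.2% and 68.0%), the Myc E-box CACGTG in 6 (9.68%, beside 8.09% and 11.7%) and the YY1 core AAGATGGCG in 3 (4.84%, beside 1.64% and 3.36%). For the GC box, the E-box and the TATA box the members thus lay on opposite sides of all genes and of listed genes. Such matches describe the letters in the window and are not evidence of binding.

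Together the members took a few percent of all normalized counts, and wildtype held the lowest share of the 6 lines on day 0 and day 1. The summed share in wildtype was 3.19% at day 0, 2.77% at day 1 and 2.92% at day 2. EMD-/y stood at 3.72%, 3.14% and 3.39%, above wildtype on each day. +EMD stood at 3.49%, 3.11% and 2.89%, so that its day 2 share was next to that of wildtype. S54F stood at 3.66%, 3.47% and 3.44%, and Del9599 at 3.52%, 3.57% and 2.98%. Q133H held the highest share on every day, at 3.83%, 4.06% and 3.52%. Without Rpl26, which is described below, wildtype day 2 stayed at 2.92% and EMD-/y day 2 was at 3.34%. Rpl26 is 1 of 10 members that were lowest in wildtype on every day, also described below. All 10 enter these shares, and shares without all of them were not computed. At day 0 Rpsa and Rps2, both among the 10, stood at 1191 and 1016 CPM in wildtype and at 1829 and 1453 in EMD-/y. At day 2 Rpsa stood at 874 CPM in wildtype, 1307 in +EMD and 1220 in Del9599. How far the order of the lines by share rests on these 10 members is thus not shown. The small subunit's summed level was 0.60 to 0.68 times that of the large subunit in every group.

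**Figure D1:**
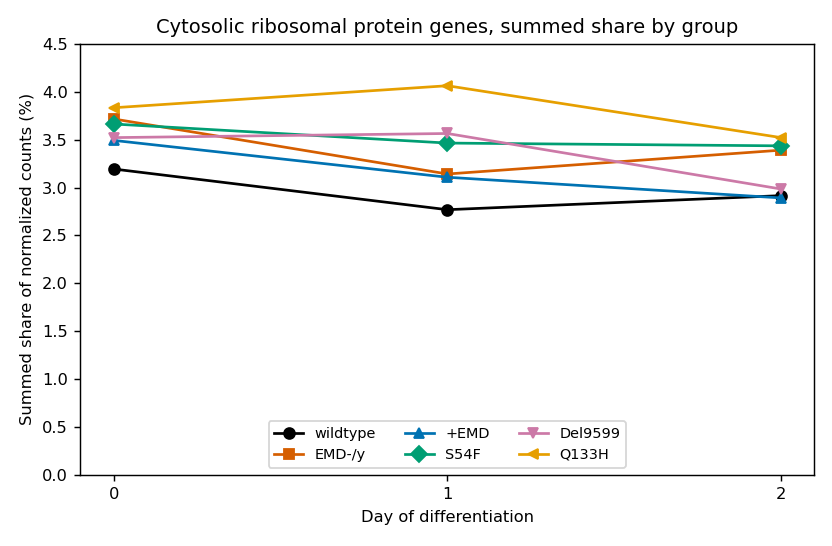
Summed share of all normalized counts held by the cytosolic ribosomal protein genes (vertical axis, percent) at days 0, 1 and 2 of differentiation, with 1 line per cell line and each point the authors' pooled group level. Q133H lies highest on every day, with 4.06% at day 1, and wildtype lies lowest at day 0 and day 1.

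Members differed more from each other than from group to group. Per kilobase of gene model, the median level over groups ran from 11.98 CPM for Rps29 to 1430 for Rpsa, with a median gene at 608. Rpsa, the laminin-receptor homolog of the small subunit, was followed by Rpl23a at 1312, Rpl41, the shortest ribosomal protein, at 1289 and Rps2 at 1270. At the low end, after Rps29, stood Rpl10a at 19.5, Rpl31 at 22.2, Rps6, whose protein is the phosphorylation target of S6 kinase, at 31.6, Rpl15 at 35.3 and Rps13 at 43.2. In total, 9 genes lay more than 4-fold under the median gene and none lay over 4 times it. The cause of these low deposited levels was not tested. Ribosomal protein genes have many processed copies, and 62 of the 78 had a stretch of at least 200 bases with 97% identity or more in another annotated GENCODE gene, up to 33 genes for Rpl21. The 10 lowest genes had 0 to 11 such copies (median 3) and the 10 highest 0 to 15 (median 4), and Spearman's rho between copies and level per length over the 78 genes was -0.0058. How the authors' counting treated reads that fit several copies is not given in the sources used here, so single levels of genes with copies are uncertain.

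**Figure D2:**
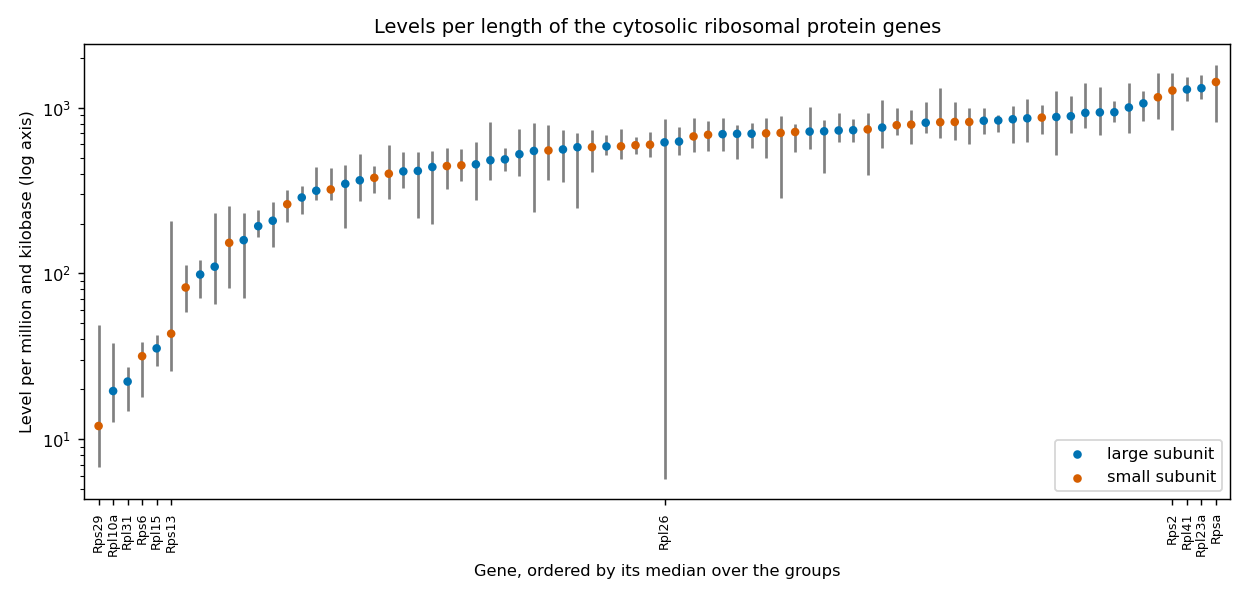
Level in CPM per kilobase (log axis) of the 78 genes, ordered by their median over 18 groups, with points at the median (blue, large subunit; orange, small subunit) and bars from the lowest to the highest group. The axis names the genes given in the text. Rps29 lies lowest at 11.98, Rpsa highest at 1430, and Rpl26 has the longest bar.

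Across the 18 groups, the highest level of a gene was a median of 1.75 times its lowest. For 53 of 78 genes this range was under 2-fold, for 22 it was between 2- and 4-fold, and for 3 genes, Rpl26, Rps13 and Rps29, it was over 4-fold. The highest group was a Q133H group for 50 genes, and the lowest was a wildtype group for 33. These 3 genes and those next in range are described first, because they carry most of the large values in the comparisons.

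Rpl26, a protein near the exit of the peptide tunnel, was almost missing from wildtype. Its level there was 4.91 CPM at day 0, 3.64 at day 1 and 3.25 at day 2. In EMD-/y it was 409, 269 and 474 CPM on the same days. In +EMD it was 313, 335 and 362, in S54F 299, 384 and 449, in Del9599 275, 397 and 366, and in Q133H 291, 480 and 417. No group of the other 5 lines overlapped wildtype, and the log2 ratios against wildtype lay between 5.76 (Del9599 day 0) and 7.19 (EMD-/y day 2). Among predicted genes without a name, chosen after the values were seen, 28 of 1798 exceeded 10 CPM in wildtype on every day and were at least 10-fold lower in every other group. For the gene among these with the closest level, of 1555 bases, wildtype held 417 CPM at day 0, 273 at day 1 and 486 at day 2, while no other group passed 0.36. The sum of Rpl26 and this predicted gene in wildtype was 422, 277 and 489, beside 409, 269 and 474 for Rpl26 in EMD-/y. The tables give no sequence or position for predicted genes, so whether wildtype reads of Rpl26 were assigned to the predicted gene was not tested. The low value in wildtype is therefore given as a deposited level and not as a loss of expression.

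A further set of members was lower in wildtype than in each other line on each day. By at least 0.3 on the log2 scale, wildtype was lowest on every day for 10 of 78 genes (12.8%) and for 333 of 14479 genes in all (2.30%), and it was highest on every day for none of the members and for 310 genes (2.14%). The 10 members lowest in wildtype included Rpl26, Rpl29, Rpl35a, Rpl21, Rps18 and Rpsa. On the log2 scale the smallest gap to the next line was 5.81 for Rpl26 and 0.69 for Rpl29, and Rpl30, the nearest member outside the limit, was at 0.23. Rpl29, a large subunit protein that binds heparin, stood at 269, 199 and 260 CPM in wildtype on days 0, 1 and 2 and at 417 to 563 in the other 15 groups. Rps18, which sits in the head of the small subunit, stood at 239, 151 and 230 in wildtype and at 288 to 471 elsewhere. Rpl35a, a gene mutated in Diamond-Blackfan anaemia, stood at 101, 119 and 130 in wildtype and at 189 to 278 elsewhere. Rpl21 stood at 339 to 347 in wildtype and at 531 to 713 elsewhere. In all of these the wildtype range lay below that of the other groups. Rpl3, a core protein of the peptidyl transferase centre, stood at 471, 293 and 316 in wildtype, and its wildtype day 0 level lay close to the 475 of EMD-/y day 1. All 15 comparisons below share the wildtype samples of their day, so a low wildtype level enters each of them.

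Wildtype and EMD-/y differed by a small, even offset in most members. The median log2 ratio of EMD-/y over wildtype was 0.13 at day 0, 0.10 at day 1 and 0.18 at day 2, beside 0.00, -0.01 and 0.00 over all genes. Past 0.3, 15, 15 and 16 of 78 genes were higher on the 3 days (19.2%, 19.2% and 20.5%), where 18.4%, 17.4% and 18.6% of all genes were, and 1, 0 and 0 were lower, where 16.8%, 13.6% and 14.4% of all genes were. The share of members past 0.3 upward was thus near that of all genes, and the share downward was below it. Among genes at 1000 normalized counts or more in either group, 11.3%, 8.22% and 12.1% were higher and 10.6%, 8.22% and 7.2% lower. Beside these abundant genes the upward share of members was larger. A log2 ratio of 1 was passed upward by 2, 3 and 2 members on the 3 days, where 4.97%, 4.61% and 4.77% of all genes passed it, and downward by 0, where 3.81%, 2.81% and 2.86% did. These were Rpl26, Rpl29 on each day (1.05, 1.09 and 1.02) and Rpl10, a late-joining protein of the large subunit, at day 1 (1.08). Rps18 was at 0.98, 0.94 and 1.00, Rpl35a at 0.98, 0.68 and 0.97, and Rps6 at 0.75, 0.80 and 0.80. The lowest ratios were those of Rps13 at day 0 (-0.32) and Rpl10a at days 1 and 2 (-0.27 and -0.22). Median ratios of the large and small subunit genes were 0.14 and 0.12 at day 0, 0.10 and 0.10 at day 1, and 0.18 and 0.19 at day 2.

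The transduced lines were set beside wildtype in the same way, and their medians had different signs by day 2. +EMD had medians of 0.03, -0.02 and -0.16 on days 0, 1 and 2. In it, 22, 22 and 12 genes were higher past 0.3 (26.7%, 30.8% and 31.0% of all genes) and 6, 13 and 17 were lower (29.6%, 31.5% and 28.4%). S54F had medians of 0.14, 0.22 and 0.18, with 27, 30 and 25 genes higher (20.7%, 23.1% and 22.4% of all genes) and 7, 5 and 0 lower (22.5%, 23.7% and 20.1%). Of the transduced lines, S54F came nearest to the offset of EMD-/y at day 2.

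Del9599 had medians of 0.03, 0.14 and -0.26. There, 19, 27 and 7 genes were higher past 0.3 (21.2%, 30.1% and 32.8% of all genes) and 12, 6 and 35 were lower (21.7%, 30.2% and 30.4%). Q133H had medians of 0.19, 0.33 and 0.01, with 26, 45 and 12 genes higher (22.3%, 30.9% and 36.7% of all genes) and 6, 3 and 21 lower (23.7%, 32.6% and 36%). The 45 of 78 genes of Q133H day 1 (57.7%) were the largest share of members past 0.3 upward in any line against wildtype. The day 1 and day 2 values of Del9599 and Q133H depended on the scale: the summed normalized counts of the line over wildtype differed by -0.13 and -0.19 in Del9599 and by -0.11 and -0.25 in Q133H on the log2 scale. With each column divided by its sum, the Del9599 median was 0.28 at day 1, with 37 genes higher and 5 lower (38.4% and 24.2% of all genes on that scale), and -0.07 at day 2, with 15 higher and 10 lower (43.1% and 20.9%). The Q133H median was then 0.44 at day 1, with 53 higher and 3 lower (37.2% and 28%), and 0.26 at day 2, with 36 higher and 9 lower (47.6% and 26%). The median of all genes was itself 0.13, 0.19, 0.10 and 0.25 in these 4 comparisons on that scale, so relative to all genes the members of Del9599 day 2 stayed lower and those of Q133H day 2 stayed near 0.

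**Figure D3:**
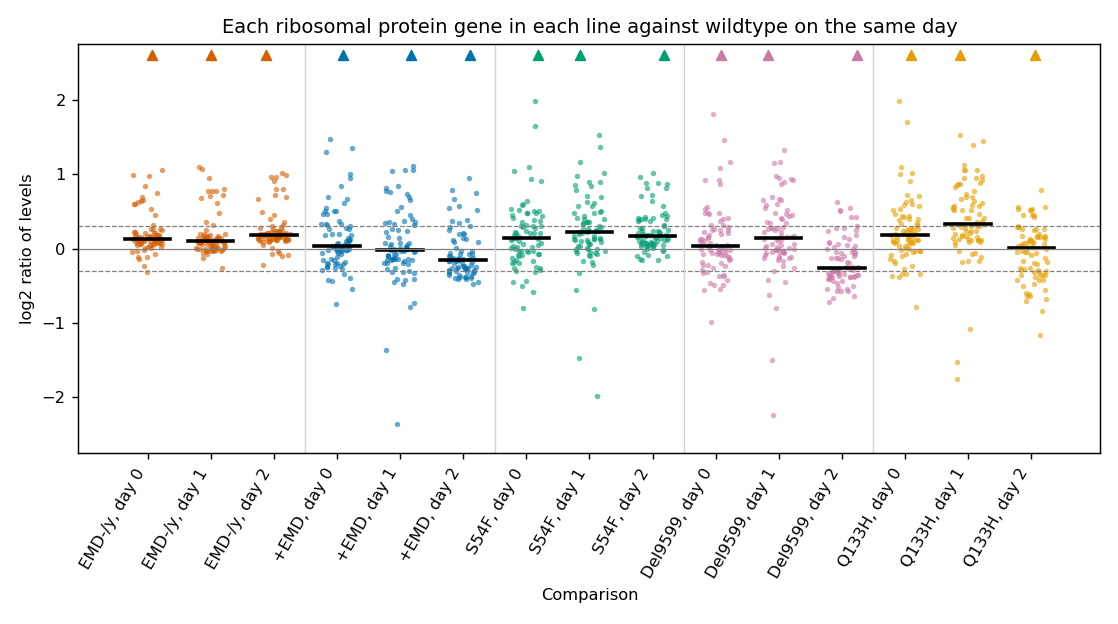
Log2 ratio of each ribosomal protein gene (points) in each line over wildtype on the same day, with thick bars at the median, dashed lines at 0.3 and -0.3, and triangles for Rpl26, which lies above the axis at 5.76 to 7.19. EMD-/y forms a tight cloud with medians of 0.10 to 0.18, and Del9599 and +EMD lie lowest at day 2 with medians of -0.26 and -0.16.

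Single members stood out in these lines. At day 0, Rpl39, a small protein lining the exit tunnel, was the lowest gene in all 4 transduced lines, at -0.74 in +EMD, -0.79 in S54F, -0.99 in Del9599 and -0.79 in Q133H. At day 1, Rps13 was lowest in +EMD (-2.36), S54F (-1.98) and Del9599 (-2.23), and Rps29 in Q133H (-1.75). At day 2, the lowest were Rps27 in +EMD (-0.48), Rpl10a in S54F (-0.16), Rpl36 in Del9599 (-0.72) and Rpl10 in Q133H (-1.16). After Rpl26, the highest at day 1 were Rpl35a in +EMD (1.11), Rpl30 in S54F (1.52), and Rps18 in Del9599 and Q133H (1.33 and 1.53).

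Changes past 1 on the log2 scale were few among members. Against wildtype on days 0, 1 and 2, 5, 5 and 1 members were higher by it in +EMD (6.17%, 8.93% and 10.7% of all genes) and 0, 2 and 0 lower (10.9%, 10.7% and 7.68%). In S54F 5, 5 and 2 were higher (5.77%, 5.62% and 5.87%) and 0, 2 and 0 lower (6.11%, 6.38% and 4.73%). In Del9599 5, 4 and 1 were higher (5.61%, 8.84% and 13.1%) and 0, 2 and 0 lower (6.75%, 12.1% and 8.91%), and in Q133H 6, 8 and 1 were higher (6.31%, 9.49% and 18%) and 0, 3 and 1 lower (8.46%, 14.6% and 15.5%). At day 0 the members past 1 were Rpl26, Rps13, Rps29, Rpl5 and Rpl35a in each transduced line, with Rpl21 (1.00) in Q133H. At day 1, members past 1 in Q133H included Rpl30 (1.44), Rpl29 (1.39), Rpl3 (1.06), Rpl34 (1.06) and Rpl39 (1.05), with Rpl5 lower (-1.08).

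Of the P-stalk genes, which recruit elongation factors to the large subunit, Rplp0 was the one that stood apart. Its level in Q133H was 1637, 1711 and 1580 CPM on days 0, 1 and 2, against 1111, 1059 and 765 in wildtype, with log2 ratios of 0.52, 0.58 and 0.79. Rplp1 and Rplp2, the acidic partners, were at -0.38, 0.87 and 0.26 and at 0.10, 0.20 and -0.36 in the same comparisons. Rpsa was higher than wildtype in each line and day, between 0.30 (Del9599 day 2) and 0.92 (Q133H day 1).

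Each transduced line was also divided by EMD-/y, the line it was made from, through the wildtype column that both tables shared on that day. EMD-/y was neither transduced nor selected, so these ratios cannot be read as effects of the emerin form alone. S54F at day 2 was next to EMD-/y, with a median of -0.01 and 0 genes higher and 1 lower past 0.3 (11.6% and 13.4% of all genes). +EMD at day 2 had a median of -0.38, with 2 genes higher and 50 lower (26.9% and 27.5% of all genes). Del9599 at day 2 had a median of -0.47, with 1 higher and 60 lower (30.5% and 30.2%). Q133H at day 2 had a median of -0.30, with 3 higher and 39 lower (34.4% and 36.8%). Divided by column sums, an alternative chosen after the data were seen, these medians were -0.28 for +EMD with 2 genes higher and 33 lower (33.2% and 20.9% of all genes on that scale), -0.23 for Del9599 with 3 and 19 (45.3% and 18.2%), and 0.01 for Q133H with 14 and 9 (48.6% and 24.6%). The median of all genes on that scale was 0.09, 0.24 and 0.27. The sign of the Q133H median at day 2 thus rested on the scale, and it lay below the median of all genes on both scales.

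On the earlier days, the medians over EMD-/y were smaller in size than at day 2 in +EMD, Del9599 and Q133H, and larger in S54F. At day 0 they were -0.11 in +EMD, -0.08 in S54F, -0.15 in Del9599 and 0.00 in Q133H, with 17, 14, 19 and 13 genes lower (25.2%, 15.3%, 16.9% and 21.6% of all genes) and 6, 7, 6 and 10 higher (20.3%, 10.9%, 16.4% and 18.3%). At day 1 they were -0.13, 0.07, 0.02 and 0.24, and in +EMD, S54F and Del9599 5, 15 and 14 genes were higher (26%, 14.5% and 26.6% of all genes) and 16, 6 and 10 lower (28.2%, 18.9% and 27.5%). Of the 78 genes, 29 were higher in Q133H than in EMD-/y at day 1, where 28% of all genes were, and 6 were lower, where 30.5% were. By column sums the day 1 medians were -0.04 in +EMD with 10 genes higher and 12 lower (32.1% and 23.5% of all genes on that scale), 0.12 in S54F with 19 and 4 (17.6% and 16.7%), 0.16 in Del9599 with 27 and 7 (37% and 21.3%) and 0.36 in Q133H with 45 and 4 (36.3% and 25.8%).

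Between day 0 and day 1, members as a group were slightly lower in wildtype, EMD-/y and +EMD. The medians were -0.11 in wildtype, -0.14 in EMD-/y and -0.20 in +EMD, and -0.05 in S54F, 0.00 in Del9599 and 0.09 in Q133H. In wildtype 27 genes were lower and 7 higher past 0.3 (33.1% and 32.4% of all genes), in EMD-/y 26 and 5 (31.9% and 32.4%), and in +EMD 24 and 4 (27.9% and 30.4%). S54F had 12 lower and 13 higher (29.4% and 28.4%), Del9599 12 and 18 (26.8% and 27.3%), and Q133H 5 and 18 (26.2% and 25.1%). The shares of members lower in wildtype, EMD-/y and +EMD were thus near those of all genes, and few members were higher.

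From day 1 to day 2, wildtype, EMD-/y and S54F had medians of 0.30, 0.37 and 0.30, +EMD 0.17, Del9599 -0.08 and Q133H -0.19. In wildtype 39 genes were higher and 6 lower (31.0% and 33.8% of all genes), in EMD-/y 52 and 4 (31.0% and 33.7%), in S54F 38 and 0 (31.8% and 33.1%), and in +EMD 17 and 2 (31.2% and 33.3%). Del9599 had 1 higher and 8 lower (27.5% and 27.5%), and Q133H 1 and 13 (26.6% and 23.1%). These values depended on the scale: the summed counts of day 2 over day 1 differed by 0.19 in wildtype, 0.24 in EMD-/y and +EMD, 0.27 in S54F, 0.14 in Del9599 and 0.02 in Q133H. With columns divided by their sums, the medians were 0.11, 0.13, 0.03, -0.07, -0.22 and -0.21 for wildtype, EMD-/y, S54F, +EMD, Del9599 and Q133H. The counts past 0.3 were then 20 higher and 9 lower in wildtype (21.7% and 43.8% of all genes on that scale), 22 and 12 in EMD-/y (19.3% and 46.8%), 5 and 5 in S54F (19% and 48.3%), 1 and 7 in +EMD (20.5% and 46.8%), 0 and 21 in Del9599 (20.7% and 37.5%), and 1 and 23 in Q133H (25.3% and 24.4%). The medians of all genes on that scale were -0.19, -0.25, -0.27, -0.25, -0.14 and 0.00 in the same order. On both scales wildtype and EMD-/y lay above Del9599 and Q133H, and Del9599 and Q133H exchanged places.

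**Figure D4:**
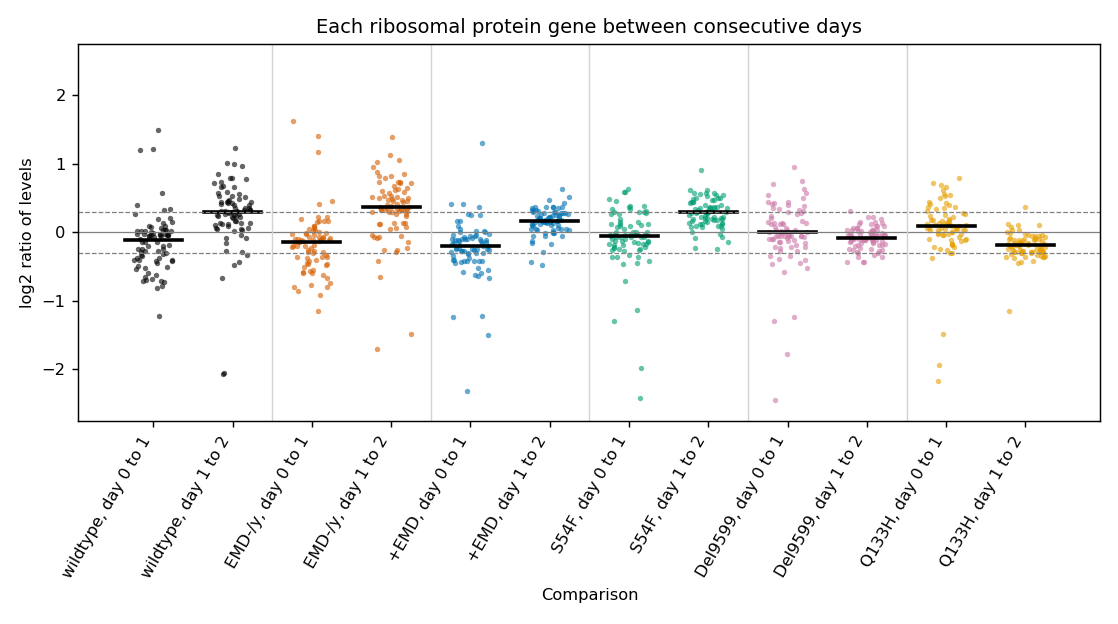
Log2 ratio of each ribosomal protein gene (points) between consecutive days in each line on the authors' scale, with thick bars at the median and dashed lines at 0.3 and -0.3. The day 1 to day 2 medians run from 0.37 in EMD-/y to -0.19 in Q133H, and the lowest points are Rps13 and Rps29.

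Past 1 in size, 3 members were higher and 1 lower from day 0 to day 1 in wildtype (12.5% and 10.3% of all genes), 3 and 1 in EMD-/y (12% and 9.42%), 1 and 4 in +EMD (10.4% and 6.93%), 0 and 4 in S54F (9.42% and 7.19%), 0 and 4 in Del9599 (7.32% and 6.69%), and 0 and 3 in Q133H (5.77% and 6.37%). From day 1 to day 2 they were 2 and 2 in wildtype (8.01% and 11.9%), 4 and 2 in EMD-/y (7.61% and 11%), 0 and 0 in +EMD (11% and 9.53%), S54F (9.39% and 11.1%) and Del9599 (8.95% and 5.24%), and 0 and 1 in Q133H (6.33% and 4.44%). Besides Rps13 and Rps29, the day 0 to day 1 members were Rpl39 (-1.21 and -1.15) in wildtype and EMD-/y, Rps27l in wildtype, EMD-/y and +EMD (1.21, 1.18 and 1.30), Rpl5 in the 4 transduced lines (-1.22 to -1.49) and Rpl10a in +EMD (-1.49), S54F (-1.13) and Del9599 (-1.24). From day 1 to day 2, Rpl27 (1.23 and 1.40) and Rpl39 (1.01 and 1.13) passed 1 in wildtype and EMD-/y, and Rpl30 (1.02) and Rpl26 also did in EMD-/y. The member past 1 in Q133H was Rpl10 (-1.14).

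Each line's change was then set against the wildtype change over the same days. EMD-/y differed from wildtype by medians of -0.03 (day 0 to day 1) and 0.08 (day 1 to day 2), with 1 gene higher and 3 lower in the first interval (13.8% and 13.1% of all genes) and 3 and 1 in the second (12.5% and 11.1%). Fewer members than genes in general thus passed 0.3 between these 2 lines. Q133H differed by 0.25 and then by -0.50, with 37 genes higher and 9 lower in the first interval (31.9% and 29.3%) and 3 higher and 54 lower in the second (36.4% and 27%). Del9599 differed by 0.17 and then by -0.37, with 33 higher and 12 lower (29.6% and 25.8%), then 5 higher and 48 lower (34.8% and 21.3%). S54F differed by 0.13 and -0.01, with 27 higher and 15 lower (24% and 23.7%), then 9 and 10 (21.6% and 16.3%). +EMD differed by -0.01 and -0.14, with 13 higher and 20 lower (27.8% and 25.2%), then 7 and 20 (30.2% and 20.6%). Divided by sums, the second Q133H value was -0.34. The summed levels of the 11 myogenic markers at day 2 were 36149 CPM in wildtype, 34916 in EMD-/y, 30435 in S54F, 24722 in +EMD, 19198 in Del9599 and 8193 in Q133H. The largest in wildtype were Acta1 and Myh3, at 13380 and 13360 CPM, and both were lower in Del9599 and Q133H. Single markers differed from the sum: Myf5 was at 6.89 CPM in wildtype, 60.6 in Del9599 and 37.4 in Q133H. The part of differentiation, or of fewer cells differentiating against less mRNA per cell, in the ribosomal protein values was not tested.

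Rps13 and Rps29, both proteins of the small subunit, had a pattern over groups unlike most members. Rps13 was at 36.8, 82.8 and 17.1 CPM in wildtype on days 0, 1 and 2, and at 28.6, 75.1 and 19.5 in EMD-/y, so both lines peaked at day 1. In +EMD it was at 93.9, 17.96 and 15.96, in S54F at 118, 21.4 and 14.96, in Del9599 at 104, 19.3 and 17.7, and in Q133H at 122, 31.1 and 22.0, so the transduced lines were highest at day 0. Rps29 had the same 6 highest groups: 14.8 and 16.2 in wildtype and EMD-/y at day 1, and 13.98, 21.96, 19.4 and 22.01 in +EMD, S54F, Del9599 and Q133H at day 0, with all other groups at 3.05 to 6.08. From day 0 to day 1, the log2 change of Rps13 was 1.22 in wildtype and 1.41 in EMD-/y, and -2.31, -2.42, -2.44 and -1.94 in +EMD, S54F, Del9599 and Q133H.

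Rpl39 had the opposite pattern. Its level was lowest in the same 6 groups, at 79.3 and 85.0 in wildtype and EMD-/y at day 1 and at 97.6 to 112 in the transduced lines at day 0, and it stood at 131 to 192 in the other 12 groups. In total, Rpl5, Rps13, Rps26 and Rps29 were higher in each of these 6 groups than in every other group, and Rpl22, Rpl27a, Rpl39 and Rps7 were lower in each. Rpl5 carries 5S RNA into the large subunit, and it stood at 299 CPM in Del9599 day 0 and 83.6 in Q133H day 2. Such a separation by any gap was found in 12 named genes that were higher and 25 that were lower, of 12382, and in 20 and 59 of 706 predicted genes, all at 2 CPM or more in some group. With a gap over 0.3 on the log2 scale it was found in 4 and 5 named genes, of which Rps13 and Rps29 were the only members, both higher, and in 17 and 48 predicted genes. The pattern is a description of group levels that was chosen after the values were seen, and its cause was not tested. Comparisons of EMD-/y with wildtype, of each line with wildtype at day 2, and of day 1 with day 2 in the transduced lines lie within one side of it. The other comparisons cross it. Leaving out Rpl26, Rps13 and Rps29 moved no median by more than 0.04. Rpl26 is not part of the pattern, and its other members stayed in, so this does not measure the part of the pattern in the comparisons.

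**Figure D5:**
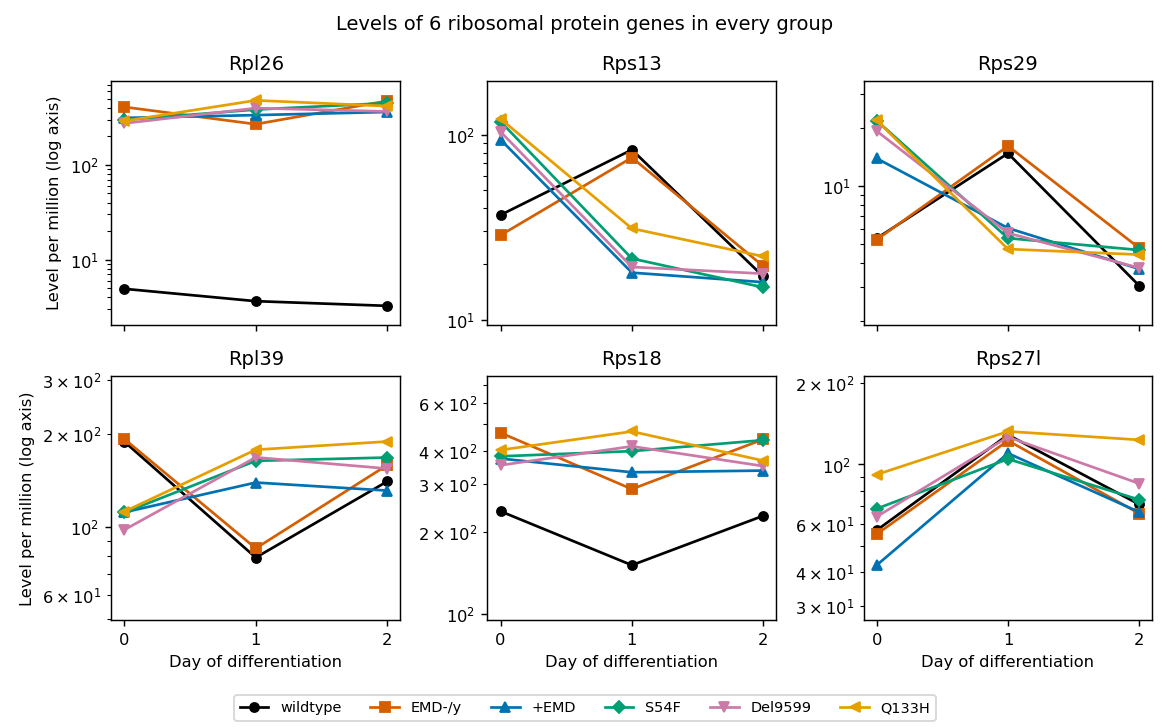
Levels in CPM (log axes) of Rpl26, Rps13, Rps29, Rpl39, Rps18 and Rps27l at days 0, 1 and 2 in each line, from the authors' pooled levels. Rpl26 and Rps18 lie lowest in wildtype on every day, Rps13 and Rps29 peak at day 1 in wildtype and EMD-/y and at day 0 in the transduced lines, and Rpl39 is lowest there.

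Paralogs of ribosomal proteins were followed beside their partners. Rps27l, a target of p53, was at 57.1, 129 and 71.1 CPM in wildtype on days 0, 1 and 2, at 55.2, 123 and 65.8 in EMD-/y, and at 42.4, 110 and 66.7 in +EMD. In S54F it was at 68.6, 105 and 74.0, in Del9599 at 64.1, 126 and 85.0, and in Q133H at 91.8, 132.5 and 123. Every line was highest at day 1, and Q133H was the line that stayed high at day 2. The day 0 to day 1 log2 change ran from 0.53 in Q133H to 1.30 in +EMD. Per length, Rps27l was 0.13 times Rps27 in wildtype day 0, 0.37 times at day 1 and 0.14 times at day 2, and 0.17, 0.21 and 0.18 times in Q133H. Mdm2 and Cdkn1a, both p53 targets, went from 145 to 679 and from 422 to 2303 CPM in wildtype between day 0 and day 1. At day 2 in wildtype Mdm2 was at 287.5 and Cdkn1a at 3536, so Mdm2 fell as Rps27l did and Cdkn1a did not. Ccng1 and Bbc3, also p53 targets, fell too, from 2443 to 1185 and from 19.5 to 11.8 CPM between day 1 and day 2. In Q133H on these days Mdm2 was at 1026 and 946, Ccng1 at 2190 and 2556, Bbc3 at 21.4 and 21.1, and Cdkn1a at 1338 and 2432. A part of p53 in the Rps27l values was not tested.

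The other paralogs were steadier or near 0. Rpl36al was between 0.35 and 0.59 times Rpl36a per length, with the lowest value in Q133H day 2. Rpl3l, the striated-muscle paralog of Rpl3, did not pass 0.071 CPM in any group, while Rpl3 was at 293 to 742. Rpl39l, known from testis, was listed in 3 of 18 groups at no more than 0.0098 CPM. Rpl10 lies on the X chromosome (chrX:74270816-74273135 on GRCm38.p6), 9252 bases from Emd (chrX:74254674-74261563). Its level was 90.03, 86.6 and 104 CPM in wildtype, 136, 184 and 116 in EMD-/y, 130, 164 and 123 in +EMD, 132, 124 and 132 in S54F, 175, 117 and 88.6 in Del9599 and 151, 132 and 56.7 in Q133H. Between day 1 and day 2 of Q133H its log2 change was -1.14, the lowest of all members in that comparison.

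Gene lists of the same pathway were set beside the members. The ribosomal components outside the rule, Rps3a1 and Fau among them, had Rps3a1 as their highest gene in each line against wildtype (0.56 to 1.34). Rps3a1 stood at 368 to 389 CPM in wildtype and at 729, 659 and 711 in EMD-/y. Ribosome biogenesis factors, which process rRNA in the nucleolus, showed a larger day 0 to day 1 difference than the members: 20 of 32 were lower and 0 higher in wildtype (median -0.52), 25 and 0 in EMD-/y (-0.72), 30 and 0 in +EMD (-0.70), 26 and 0 in S54F (-0.58), 25 and 0 in Del9599 (-0.51), and 13 and 0 in Q133H (-0.23). The shares of all genes in these comparisons are given above. Dkc1, the pseudouridine synthase of rRNA, was the lowest factor in each line, from -0.69 in Q133H to -1.51 in EMD-/y. At day 0, 28 of 32 factors were higher in +EMD than in wildtype (median 0.50), where 26.7% of all genes were. In the other lines 13 were higher in EMD-/y (18.4% of all genes), 12 in S54F (20.7%), 9 in Del9599 (21.2%) and 7 in Q133H (22.3%).

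The mitochondrial ribosomal proteins, which build the separate ribosome of that organelle, were also compared between days 1 and 2. Of 78 tested, 47 were higher and 2 lower in wildtype (median 0.35), 48 and 0 in EMD-/y (0.34), 31 and 4 in S54F (0.24), 19 and 6 in +EMD (0.10), 7 and 3 in Del9599 (0.01) and 1 and 15 in Q133H (-0.11), beside the shares of all genes given above for these comparisons. By column sums, an alternative chosen after the data were seen, the medians were 0.16, 0.10, -0.03, -0.14, -0.14 and -0.13, with 28 higher and 3 lower in wildtype, 22 and 4 in EMD-/y, 7 and 16 in S54F, 2 and 24 in +EMD, 2 and 13 in Del9599, and 1 and 18 in Q133H, so the signs in S54F, +EMD and Del9599 rested on the scale. Against wildtype at day 2, 4 of 78 were higher and 35 lower in Del9599, and 4 and 37 in Q133H, and by column sums 7 and 15 and 15 and 17. Eef1g, a subunit of elongation factor 1, stood at 414, 388 and 485 CPM in wildtype on days 0, 1 and 2. In the other lines Eef1g stood at 573 to 978, so wildtype was below each of them and not only below EMD-/y. In the list of other 5′ pyrimidine-tract mRNAs and elongation factors, Eef1g was the highest of 17 genes in EMD-/y against wildtype (1.00, 0.89 and 1.00 on days 0, 1 and 2). The list's medians there were 0.16, 0.07 and 0.15. In that comparison the medians of 12 RNA polymerase I genes were 0.20, 0.00 and -0.11, those of 23 initiation factors 0.14, 0.02 and 0.05, those of 12 mTOR and LARP1 genes 0.03, -0.03 and -0.08, those of 7 to 8 Myc-family factors -0.12, -0.03 and -0.08, and those of 10 genes of the 5S RNP and p53 checkpoint 0.23, -0.02 and -0.12. From day 1 to day 2 in wildtype, 9 of 12 mTOR and LARP1 genes and 11 of 23 initiation factors were higher (medians 0.62 and 0.28), where 31.0% of all genes were. The summed counts differed by 0.19 on the log2 scale in this comparison, and these medians were not computed by column sums.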

How the data were processed

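PolyA RNA of 54 samples was sequenced as paired 100-base reads on the DNBseq platform. Per the labels, reads were aligned with HISAT2 (mm10) and groups compared with DESeq2 by the authors. The deposited values are signal values: pooled group levels in normalized counts, 2 groups to each of 27 tables (15 of a line and wildtype, 12 of consecutive days), with gene length. Tables also hold the authors' fold changes, p-values, adjusted p-values and calls, which were not used. At low values a group's level differed with the partner group of the table (Emd in EMD-/y day 0 was 3.52 beside wildtype and 0.85 beside day 1), so these levels are not plain means of counts. How they were made is not given in the sources used here. Ratios were taken within tables, and those of genes near 0 in 1 group are uncertain in size. Depth per sample is unknown. Each table listed between 17215 and 17876 genes.

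Tables were read with Python 3.11.15, numpy 2.4.6 and pandas 2.3.3, and the ratio and the call were tested on simulated data. Genes were matched by NCBI gene number to RefSeq (GRCm38.p6). A ratio was log2 of the levels plus 1; genes at 10 or more in either group were compared with a threshold of 0.3, or 1 for large changes. Without values per sample, no test, error or interval was computed. Near-identical transcripts were found with minimap2 2.31 on GENCODE M21. Named genes were the highest and lowest member of each comparison, every member past 1, paralogs, P-stalk genes and Rpsa, the extremes per length and the extremes of each list. The members and gene lists were chosen with earlier results of these data known. Alternatives were other pseudocounts, filters, scalings, routes through other tables, thresholds and member sets. Some genes are not reported here.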

Additional observations from a re-analysis of the deposited data

How the results depend on the processing

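No paired analysis was possible because the tables hold 1 pooled level per group, and leaving out replicates could not be run for the same reason. The medians of the 27 comparisons moved by at most 0.05 under pseudocounts of 0 and 10, filters of none and 1000, centring on all genes, other linking tables, added components, and without Rpl26, Rps13 and Rps29 (the last chosen after the data were seen). Among the 54 counts of members past 0.3, 7 moved by over 1.5 times without those 3 genes and 15 under each scaling by sums. Scaling by column sums, or by the sums of the other genes, moved 9 of 27 by 0.1 or more. The first and second scaling gave 0.28 and 0.29 for Del9599 against wildtype at day 1, -0.071 and -0.070 at day 2, 0.44 and 0.46 for Q133H at day 1, and 0.26 and 0.27 at day 2. For day 1 to day 2 they gave 0.11 and 0.12 in wildtype, 0.13 and 0.13 in EMD-/y, 0.028 and 0.027 in S54F, -0.22 and -0.23 in Del9599, and -0.071 and -0.074 in +EMD, where the sign turned from 0.17. Against the wildtype change, sums moved +EMD from day 0 to day 1 to 0.10 and Q133H from day 1 to day 2 to -0.34. By construction, these follow the column sums. Ratios of the summed share to wildtype moved by under 0.1 in all 45 alternatives. These changed the denominator or left out Rpl26 alone, and none left out all the members that were lowest in wildtype on every day. At a threshold of 0.5, 0 to 32 members were higher and 0 to 15 lower in a comparison, at 1, 0 to 8 and 0 to 4, against 1 to 52 and 0 to 35 at 0.3.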
